A study of Mus musculus with 6 samples.

Results

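Mylip, Lrp1, Scarb1 and Sort1, 4 genes by which a liver cell takes up lipoproteins or controls the receptors for them, were followed in mouse liver, on a diet rich in cholesterol (HCD) and on regular chow (RD). They were taken by gene symbol from the deposited expression table, and all 4 were found among its 20673 genes. The 6 libraries of total liver RNA, 3 per diet, came from C57BL/6J mice and were taken as 1 mouse each. The HCD (TD.88051) held cholesterol, cocoa butter and sodium cholate, and the RD (Teklad Global chow) was a standard rodent feed. Livers were collected after 3 days of feeding, with no other treatment, so cholate and fat differed between the diets together with cholesterol and their parts in a result cannot be told apart. The study used both sexes, and neither the age nor the sex of a mouse is in its label. Library names begin with A on RD and with Liver on HCD. Any difference between these series of libraries therefore cannot be told apart from diet.

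The liver clears most lipoprotein cholesterol from plasma by receptor-mediated endocytosis. Receptors of the LDL receptor family bind apolipoproteins at the surface, enter through clathrin-coated pits and return from endosomes, unless a ubiquitin ligase marks them for the lysosome. Cholesteryl esters of high-density lipoprotein (HDL) enter by another route, in which the receptor hands over lipid without taking in the particle. Oxysterols made from cholesterol activate the liver X receptors (LXR), which switch on genes of sterol export and also the gene of 1 such ligase.

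The libraries held 13771630 to 23129576 counts with RD and 13935491 to 18545549 counts with HCD, and 13105 genes passed the filter on low counts, all 4 genes of interest among them. Hepatocyte markers were abundant in every library, with a summed level of 84050 to 116535 CPM (counts scaled to the library total times its TMM factor) on RD and 91304 to 132646 CPM on HCD over 6 genes. HCD replicate 1 stood apart, since it held 5032 counts of Xist and 0 counts of Y-linked genes, whereas the other 5 libraries held 0 counts of Xist and 1075 to 2666 Y-linked counts. Values without that liver are given below for the 4 genes and for Vldlr, Cd36, Stab1 and Sorl1. HCD replicate 3 had the fewest genes with a count, 15024 beside 16603 to 17804 in the other 5 libraries, and the lowest TMM factor, 0.886. In whole liver, fewer cells of a type and less RNA per cell cannot be told apart.

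Transcript levels of the 4 genes differed in order between the diets. On the FPKM scale, which divides by gene length and allows genes to be compared, the order on RD was Lrp1 at 65.3 ± 1.46, Scarb1 at 39.6 ± 3.58, Sort1 at 5.67 ± 0.943 and Mylip at 2.18 ± 0.525 (mean ± SD, n = 3). No 2 neighbours in that order overlapped between livers. On HCD the order was Scarb1 at 62.4 ± 3.32, Lrp1 at 50.7 ± 1.34, Sort1 at 4.43 ± 1.54 and Mylip at 4.17 ± 2.49 FPKM (SD, n = 3). There Scarb1 lay above Lrp1 in each liver, and the livers' values of Sort1 and Mylip overlapped. Among the genes tested, the mean FPKM over the 6 livers was lower than that of Lrp1 for 91.6%, of Scarb1 for 90.7%, of Sort1 for 53.1% and of Mylip for 41.8%.

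**Figure D1:**
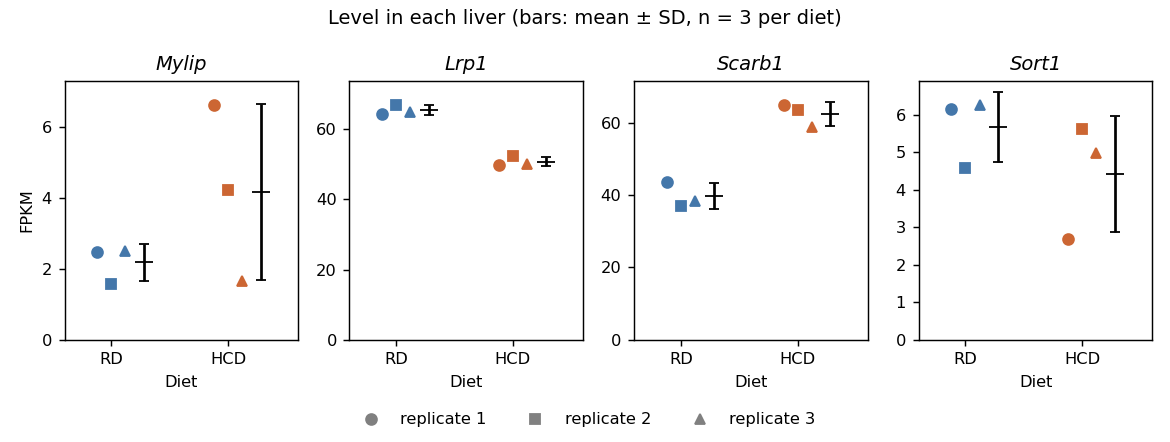
FPKM (vertical axis, from 0) of Mylip, Lrp1, Scarb1 and Sort1 in each liver by diet (horizontal axis), with the mean ± SD of 3 livers beside the points. The diets do not overlap for Lrp1 (64.2 to 66.9 on RD, 49.8 to 52.2 on HCD) or Scarb1 (36.9 to 43.7 on RD, 58.7 to 65.0 on HCD), and they overlap for Mylip and Sort1.

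None of the 4 genes passed the test at an adjusted p under 0.05 by the quasi-likelihood test of edgeR (Benjamini-Hochberg, 13105 genes), which called 3.27% of all genes, 1.95% higher on HCD and 1.32% lower. Without adjustment, at p of 0.05 or less, 1 of the 4 was higher on HCD (Scarb1), beside 11.1% of all genes, and 1 was lower (Lrp1), beside 9.81%. The CPM of the diets did not overlap for these 2 of the 4 genes, beside 27.6% of all genes. With DESeq2, Scarb1 was called higher, as were 4.01% of genes, and no member was called lower, as were 3.19%.

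Scarb1 encodes the scavenger receptor class B type 1, the HDL receptor of hepatocytes, through which cholesteryl esters pass into the cell and on towards bile. The gene (ENSMUSG00000037936) spans chr5:125277087-125341094 on the minus strand of GRCm38, with 16 merged exons of 8500 bases. Its level on RD was 43.7, 36.9 and 38.3 FPKM in replicates 1 to 3, from 5313, 3135 and 5019 counts. On HCD it was 65.0, 63.6 and 58.7 FPKM, from 7252, 5420 and 4105 counts. The lowest HCD liver lay above the highest RD liver. The fitted level on HCD was 1.55 times that on RD (95% interval 1.24 to 1.94), a log2 fold change of 0.63 with a standard error of 0.14.

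The adjusted p of Scarb1 by edgeR was 0.0514, just outside the threshold, and by its p-value the gene stood at place 439 of the 13105, with 428 genes called. Over the 20 ways to divide the 6 livers between the diets the exact permutation test gave p = 0.1 (two-sided), the smallest that 3 against 3 livers allow. The call turned on the processing, since 6 of the 11 alternatives that kept all 6 livers placed Scarb1 past the threshold. These were DESeq2 (adjusted p = 0.00250), upper-quartile factors (0.0433, with 3.41% of all genes called), and edgeR on genes with a mean of at least 50 counts (0.0410, with 4.19% called). Scarb1 also passed in limma-trend fits of log2(FPKM + 1) (0.0358, with 2.85% called) and log2(FPKM + 0.1) (0.0378, with 2.62% called). The last was edgeR with the trend over gene length removed (0.0439, with 1.92% called). In the other 5 the adjusted p ran from 0.0502 to 0.114. With any 1 liver left out the log2 fold change was 0.59 to 0.71 and the adjusted p 0.0727 to 0.236, and without HCD replicate 1 it was 0.61.

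Lrp1 encodes a very large endocytic receptor of the LDL receptor family, which in hepatocytes takes up remnant lipoproteins and many other ligands. The gene (ENSMUSG00000040249) lies at chr10:127538161-127621148 on the minus strand of GRCm38, and its 88 merged exons add up to 17717 bases. Its 3 RD livers held 64.2, 66.9 and 64.7 FPKM, from 16263, 11851 and 17674 counts. The HCD livers held 49.8, 52.2 and 49.98 FPKM, from 11583, 9281 and 7286 counts. Each HCD liver lay below each RD liver, and the spread within a diet was small, with a coefficient of variation of 2.23% on RD and 2.65% on HCD.

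The fitted level of Lrp1 on HCD was 0.764 times that on RD (95% interval 0.611 to 0.955), a log2 fold change of -0.39 with a standard error of 0.14. Its adjusted p was 0.170 by edgeR and 0.0668 by DESeq2, and the exact permutation test gave p = 0.1. It was -0.44 to -0.36 on the log2 scale with any 1 liver left out and -0.36 without HCD replicate 1. Long genes as a group were lower on HCD. Lrp1 belongs to the 1310 tested genes with the longest exons (9709 to 123179 bases), whose median log2 fold change was -0.17, with 5 genes called higher and 31 lower. At the other end, the 1310 shortest genes (57 to 1434 bases) had a median of 0.32, with 102 called higher and 11 lower, beside 1.95% and 1.32% of all genes. With the trend over length removed, the log2 fold change of Lrp1 was -0.20 with an adjusted p of 0.541, and the cause of that trend was not tested. Scarb1 and Sort1 belong to the group next in length (7398 to 9700 bases), with a median of -0.12, and with the trend removed Scarb1 stood at 0.75.

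Mylip encodes an E3 ubiquitin ligase, also called IDOL, which marks receptors of the LDL receptor family for degradation and whose gene is a known LXR target. The gene (ENSMUSG00000038175) spans chr13:45389742-45412022 on the plus strand of GRCm38, with 8 merged exons of 3233 bases. It had the lowest mean FPKM of the 4 genes on both diets, although in HCD replicate 1 it lay above Sort1. Its counts were 115, 51 and 124 on RD and 281, 137 and 44 on HCD, or 2.49, 1.58 and 2.49 FPKM on RD and 6.63, 4.23 and 1.65 FPKM on HCD. HCD replicates 1 and 2 lay above all RD livers, whereas HCD replicate 3 lay within the RD range in FPKM and in TMM-scaled CPM. Scaled by library totals alone, Mylip in that liver was at 3.16 CPM, below the 3.70 to 5.70 CPM of the RD livers.

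On the CPM scale Mylip averaged 4.82 ± 1.10 on RD and 9.07 ± 5.33 on HCD (SD, n = 3), with a coefficient of variation of 22.8% and 58.7%. The log2 fold change was 0.91 with a standard error of 0.45 (95% interval -0.11 to 1.94), the adjusted p by edgeR was 0.289, and the exact permutation test gave p = 0.3. A difference was thus not detectable against this spread. Without HCD replicate 1 it was 0.43 (adjusted p = 0.626), and without HCD replicate 3 it was 1.28 (adjusted p = 0.0990). Kupffer cell markers followed the order of Mylip among the HCD livers, with a summed level of 456, 404 and 200 CPM in replicates 1 to 3. Among the RD livers they did not, with 153, 188 and 248 CPM where Mylip was at 5.53, 3.56 and 5.38 CPM. Total counts per library fell in the same order on HCD, at 18545549, 14823396 and 13935491. All 8 of these markers had a log2 fold change above 0, as did 50.7% of all genes tested, and none was at 0 in any library. None was called by edgeR, 4 were higher by unadjusted p (beside 11.1% of all genes) and 3 by DESeq2 (beside 4.01%). Their part in the values of Mylip was not tested.

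Sort1 encodes sortilin, a receptor of the Golgi and endosomes that sorts proteins towards the lysosome and affects the release and uptake of apolipoprotein B particles. The gene (ENSMUSG00000068747) spans chr3:108284082-108361511 on the plus strand of GRCm38, with 20 merged exons of 7569 bases, of which 4.47% overlap exons of the antisense gene Gm12523 (0 to 3 counts per library). Its level was 6.16, 4.59 and 6.28 FPKM on RD, from 667, 347 and 732 counts, and 2.69, 5.61 and 4.98 FPKM on HCD, from 267, 426 and 310 counts. HCD replicate 1 alone lay below the RD range, and the other 2 HCD livers lay within it in FPKM. Scaled by library totals alone, Sort1 in HCD replicate 3 was at 22.2 CPM, below the RD range of 25.2 to 33.1 CPM. The log2 fold change was -0.38 with a standard error of 0.27 (95% interval -0.999 to 0.241), with an adjusted p of 0.462 by edgeR and an exact permutation p of 0.3. Without HCD replicate 1 it was -0.11 (adjusted p = 0.780), and without HCD replicate 2 it was -0.62 (adjusted p = 0.253).

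**Figure D2:**
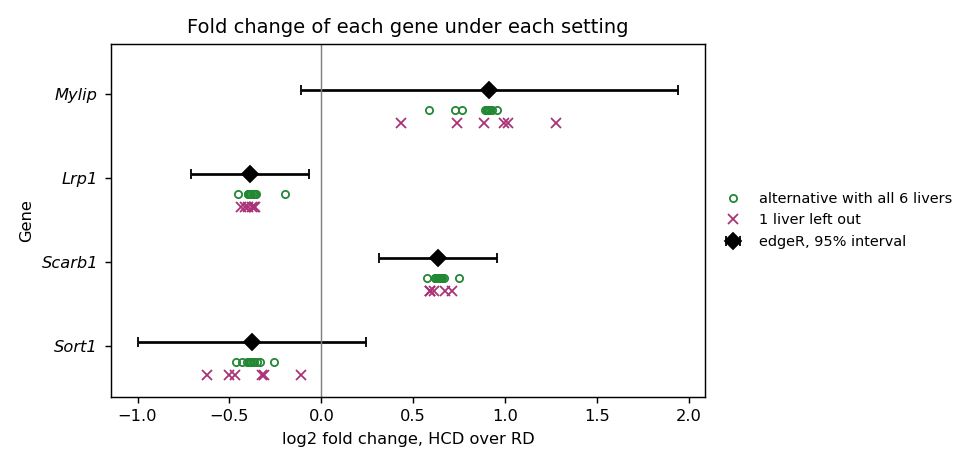
Log2 fold change, HCD over RD (horizontal axis), of each gene (vertical axis). Diamonds are the edgeR estimates with 95% intervals, circles the 11 alternatives with all 6 livers and crosses the 6 fits with 1 liver left out. The intervals of Scarb1 (0.31 to 0.95) and Lrp1 (-0.71 to -0.066) lie to one side of 0, whereas those of Mylip and Sort1 span it.

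Since a ratio of 2 genes within a liver does not depend on how libraries are scaled, the 6 pairs of the 4 genes were compared as FPKM ratios. The ratio of Lrp1 to Scarb1 was 1.47, 1.81 and 1.69 on RD and 0.766, 0.822 and 0.852 on HCD. The endocytic receptor thus had the higher transcript level of the pair in each RD liver and the lower one in each HCD liver. The log2 ratio was 1.02 lower on HCD (a difference of -1.02, from -1.11 to -0.96 with any 1 liver left out), with an exact permutation p of 0.1 and 0.3 after adjustment over the 6 pairs. The ratio of Scarb1 to Sort1 was 7.09, 8.05 and 6.11 on RD and 24.2, 11.3 and 11.8 on HCD. These groups did not overlap either, and the difference in log2 ratio was 1.07 (exact p = 0.1, adjusted p = 0.3, range 0.72 to 1.26 with 1 liver left out).

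The other 4 pairs overlapped between the diets. The log2 ratio of Mylip to Lrp1 differed by 1.11 (exact permutation p = 0.3, adjusted p = 0.6), with a range of 0.66 to 1.66 over the fits with 1 liver left out. That of Mylip to Sort1 differed by 1.16 (exact permutation p = 0.4, adjusted p = 0.6), by 0.39 without HCD replicate 1 and by 1.84 without HCD replicate 3. Mylip to Scarb1 and Lrp1 to Sort1 differed by 0.090 and 0.048, with exact permutation p of 0.8 and 1, and both changed sign with 1 liver left out (-0.32 to 0.61 and -0.27 to 0.23). With 3 livers against 3, this exact test cannot go below p = 0.1, so none of the 6 pairs could pass its threshold.

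**Figure D3:**
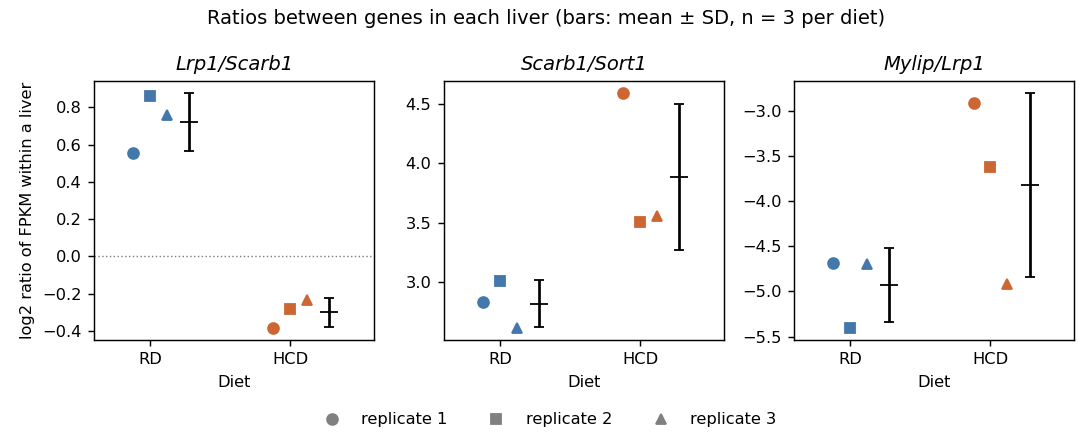
Log2 ratio of FPKM within each liver (vertical axis) by diet (horizontal axis) for 3 of the 6 pairs, with the mean ± SD of 3 livers beside the points. Lrp1 over Scarb1 lies above 0 in the 3 RD livers and below 0 in the 3 HCD livers, Scarb1 over Sort1 does not overlap between diets, and Mylip over Lrp1 overlaps through HCD replicate 3.

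The sequence just upstream of the start site is shown for Mylip and Lrp1, the least and the most abundant of the 4 genes on RD, whose fitted changes had opposite signs. Both are the 250 bases before the RefSeq transcript start on GRCm38.p6, written 5′ to 3′ on the gene's own strand. They cover chr13:45389492-45389741 on the plus strand for Mylip and chr10:127621149-127621398 on the minus strand for Lrp1. Capitals mark matches, on either strand, to TATAAA, to CCAAT (read as ATTGG on the other strand) and to GGGCGG (read as CCGCCC), the letters of the TATA, CCAAT and GC boxes.
Mylip: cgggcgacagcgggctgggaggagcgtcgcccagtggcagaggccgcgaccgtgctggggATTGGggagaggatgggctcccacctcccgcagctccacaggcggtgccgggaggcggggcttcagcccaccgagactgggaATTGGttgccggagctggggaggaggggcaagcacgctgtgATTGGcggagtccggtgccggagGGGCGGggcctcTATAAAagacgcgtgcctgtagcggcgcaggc
Lrp1: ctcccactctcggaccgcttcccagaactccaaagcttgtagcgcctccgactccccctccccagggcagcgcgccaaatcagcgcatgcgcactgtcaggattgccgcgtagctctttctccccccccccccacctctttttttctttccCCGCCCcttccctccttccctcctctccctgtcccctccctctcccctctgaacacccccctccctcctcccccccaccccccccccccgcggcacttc

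Mylip held 1 TATAAA that began 32 bases before the start, CCAAT on the other strand at 190, 108 and 67 bases, and GGGCGG at 44 bases. Lrp1 held none of these but 1 GGGCGG match on the other strand, at 99 bases. Of all 32851 promoter windows of the same length, 12.4% held TATAAA, 33.8% CCAAT and 32.7% GGGCGG. The GC content was 71.2% for Mylip and 67.2% for Lrp1, beside a median of 52.4% over all windows. A match of this kind is a description of the letters, not of a bound site.

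The genes around the 4 were described by 7 lists, of which 66 genes were tested. Of these, 4 were called higher and 0 lower by edgeR, beside 1.95% and 1.32% of all genes. Before adjustment, p was 0.05 or less for 15 higher (22.7%, beside 11.1% of all genes) and 7 lower (10.6%, beside 9.81%), and DESeq2 called 7 higher (10.6%, beside 4.01%) and 3 lower (4.55%, beside 3.19%). The 4 called genes all came from the list of LXR targets, which was written with earlier results of these data known. That list also held 6 of the 7 genes called higher by DESeq2 and 7 of the 15 higher by unadjusted p. The shares of the 66 genes thus rest in large part on that list. In 29 of the 66 (43.9%, beside 27.6% of all genes) the CPM of the diets did not overlap, and the median log2 fold change was 0.0049, beside 0.0074 over all genes tested.

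Among 11 tested genes of the LDL receptor family and its relatives, 9 had a log2 fold change below 0 and none was called by edgeR, whereas 50.7% of all genes were above 0. DESeq2 called 1 higher and 1 lower (beside 4.01% and 3.19% of all genes), as did an unadjusted p (beside 11.1% and 9.81%). The median was -0.19. With the trend over gene length removed, 8 of the 11 were below 0 and the median was -0.10. Vldlr, the very-low-density lipoprotein receptor, which is scarce in healthy liver, held 2, 2 and 20 counts on RD and 492, 14 and 30 on HCD. One HCD liver, replicate 1, held most of its reads, the same liver that held Xist counts. Vldlr had a log2 fold change of 4.58 with a standard error of 1.30 (adjusted p = 0.0979 by edgeR, 0.0212 by edgeR without the filter on low counts, 0.0347 by DESeq2 and 0.0964 to 0.351 in the other alternatives with all 6 livers), and without that liver it was 2.12 (adjusted p = 0.278). Lrp2, megalin, best known from kidney, held 25, 59 and 67 counts on RD and 4, 9 and 8 on HCD, with a log2 fold change of -2.50 and a standard error of 0.66 (adjusted p = 0.0812 by edgeR, 0.0479 without the filter, 0.00914 by DESeq2 and 0.0796 to 0.243 in the others). At these low levels limma on log2(FPKM + 1) gave 0.88 for Vldlr and -0.24 for Lrp2.

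Of 10 tested scavenger and endothelial lipoprotein receptors, 6 had a log2 fold change above 0 and none was called by edgeR or DESeq2 (1 higher by its unadjusted p, beside 11.1% of all genes). Cd36, a class B scavenger receptor that takes up fatty acids, was at 12.8, 7.81 and 27.1 CPM on RD and 159.8, 20.3 and 39.0 CPM on HCD. Again HCD replicate 1 was highest. Cd36 had a log2 fold change of 2.19 with a standard error of 0.74 (adjusted p = 0.145), and without that liver it was 0.88 (adjusted p = 0.347). Stab1, stabilin-1 of sinusoidal endothelium, had the lowest value of this list, -0.28 with a standard error of 0.23 (adjusted p = 0.527), -0.46 without HCD replicate 1, -0.093 without RD replicate 3 and -0.10 without HCD replicate 3. Sinusoidal endothelial markers summed to 124 to 221 CPM on RD and 169 to 260 CPM on HCD, with 6 of 7 above 0 on the log2 scale, none called and none at 0 in any library, and their part in these values was not tested.

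The sortilin family and retromer list, which sorts receptors between Golgi and endosomes, had 4 of 8 tested genes above 0 and 4 below. None was called by edgeR and 1 was lower by DESeq2 (beside 3.19% of all genes). By unadjusted p, 2 were higher and 2 lower (beside 11.1% and 9.81%). The CPM of the diets did not overlap in 6 of the 8, beside 27.6% of all genes. Sorl1, the sortilin-related receptor, was at 1.92, 1.12 and 1.04 CPM on RD and 4.85, 2.00 and 2.67 CPM on HCD, and its log2 fold change was 1.22 with a standard error of 0.48 (adjusted p = 0.196). Without HCD replicate 1 it was 0.77 (adjusted p = 0.453). Sortilin itself had a value of the opposite sign, and the difference between the genes was not tested. Gga3, an adaptor that carries sortilin from the Golgi, had a log2 fold change of -1.05 with a standard error of 0.33 (adjusted p = 0.129 by edgeR and 0.0336 by DESeq2), and -0.63 without RD replicate 2 (adjusted p = 0.396).

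Of 15 tested adaptors, chaperones and coat proteins of receptor uptake, 5 had a log2 fold change above 0 and 10 below, with a median of -0.044 and none called by edgeR or DESeq2 (2 higher and 1 lower by unadjusted p, beside 11.1% and 9.81% of all genes). Pdzk1, the scaffold that keeps the Scarb1 protein at the hepatocyte surface, was at 29.0, 28.6 and 27.2 CPM on RD and 24.2, 22.1 and 20.7 CPM on HCD. Each HCD liver lay below each RD liver, opposite to Scarb1. The CPM of the diets did not overlap in 4 of the 15 genes, beside 27.6% of all genes. The log2 fold change of Pdzk1 was -0.34 with a standard error of 0.13 and an adjusted p of 0.194. Ap2s1, the small subunit of the clathrin adaptor AP-2, had the highest value, 0.55 with a standard error of 0.16 (adjusted p = 0.101).

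The COMMD and WASH complexes return endocytosed receptors to the surface. Of 7 tested genes 4 were above 0 and 3 below, with none called by edgeR and 1 lower by DESeq2 (beside 3.19% of all genes). By unadjusted p, 1 was higher and 2 were lower (beside 11.1% and 9.81%). The CPM of the diets did not overlap in 5 of the 7, beside 27.6% of all genes. Commd1 had a log2 fold change of 0.38 with a standard error of 0.21 (adjusted p = 0.338; 0.24 without HCD replicate 3), and Washc4, a WASH subunit, one of -0.76 with a standard error of 0.20. Washc4 was at 25.9, 27.9 and 28.8 CPM on RD and 14.6, 21.3 and 12.8 CPM on HCD, without overlap. Its adjusted p was 0.0810 by edgeR and 0.0247 by DESeq2, and it passed the threshold without HCD replicate 2 (adjusted p = 0.0338 by edgeR). In the ubiquitin pathway, 3 of 6 genes were above 0 and 3 below, with none called by edgeR or DESeq2. By unadjusted p, 1 was higher and 1 lower (beside 11.1% and 9.81% of all genes), and 3 of the 6 did not overlap (beside 27.6%). The extremes of this list were the deubiquitinases Usp2, at 1.02 with a standard error of 0.50, and Usp8, at -0.38 with a standard error of 0.13 (adjusted p = 0.283 and 0.156). Usp2 stood at 0.66 without RD replicate 3 and 1.55 without RD replicate 1.

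**Figure D4:**
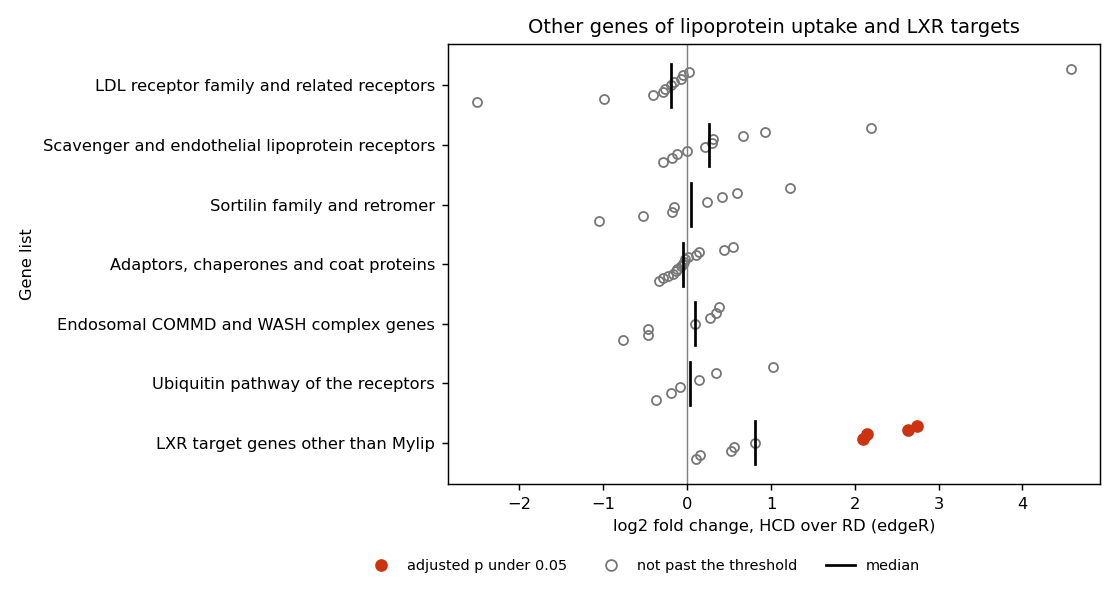
Log2 fold change, HCD over RD (horizontal axis, edgeR), of the 66 tested genes in 7 lists (vertical axis), with a bar at each list's median. Filled points passed an adjusted p under 0.05, and all 4 of them are LXR targets between 2.10 and 2.74.

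Among LXR targets other than Mylip, all 9 tested genes had a log2 fold change above 0, as did 50.7% of all genes, and the median was 0.81. Of the 9, 4 were called higher by edgeR (beside 1.95% of all genes), 7 by unadjusted p (beside 11.1%) and 6 by DESeq2 (beside 4.01%). The list was written with earlier results of these data known. Abcg5 and Abcg8, which form the transporter that exports sterols into bile, rose in all HCD livers. Abcg5 was at 40.0, 33.6 and 85.5 CPM on RD and 321, 326 and 420.3 CPM on HCD, a log2 fold change of 2.74 with a standard error of 0.35 (adjusted p = 0.0104). Abcg8 went from 78.5 ± 30.3 CPM to 489 ± 28.8 CPM (SD, n = 3), with a log2 fold change of 2.64 and a standard error of 0.26 (adjusted p = 0.00407).

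Srebf1, which encodes a master regulator of fatty acid synthesis, rose from 227 ± 45.4 to 1001 ± 168 CPM (SD, n = 3), a log2 fold change of 2.14 with a standard error of 0.21 (adjusted p = 0.00407). Abcg1, a sterol exporter that macrophages also use, rose from 4.13 ± 1.64 to 17.9 ± 7.13 CPM, a log2 fold change of 2.10 with a standard error of 0.36 (adjusted p = 0.0258). Abca1, which loads cholesterol onto apolipoprotein A-I, had the smallest value of the list, 0.11 with a standard error of 0.24 (adjusted p = 0.831), and -0.24 without HCD replicate 2. With any 1 liver left out, Abcg8 and Srebf1 passed the threshold in all 6 fits and Abcg5 in 5, the exception being the fit without RD replicate 1 (adjusted p = 0.0617). Abcg1 passed in 2 of 6, those without RD replicate 3 and without HCD replicate 1, with an adjusted p of 0.0502 to 0.128 in the others. Without RD replicate 1, 2 genes of the 7 lists were called higher, in a fit that called 0.112% of all genes higher, beside 1.95% with all 6 livers.

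Mylip was set beside these genes liver by liver. As deviations from the mean of the 6 livers on the log2(CPM + 0.5) scale, the median of the 9 LXR targets was -0.97, -0.48 and -0.30 on RD and 0.53, 0.69 and 0.62 on HCD. Mylip was at -0.14, -0.71 and -0.17 on RD and 1.15, 0.58 and -0.71 on HCD. HCD replicate 3 was thus among the highest of the livers for the median of the list and among the lowest for Mylip, at 44 counts. Within the list, Abca1 was also lowest in that liver, at 174.5 CPM beside 187 to 228 CPM on RD. Smpdl3a, at 28.4 CPM there, lay just above its RD range of 26.0 to 27.9 CPM. The remaining list genes lay above their RD ranges in that liver.

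**Figure D5:**
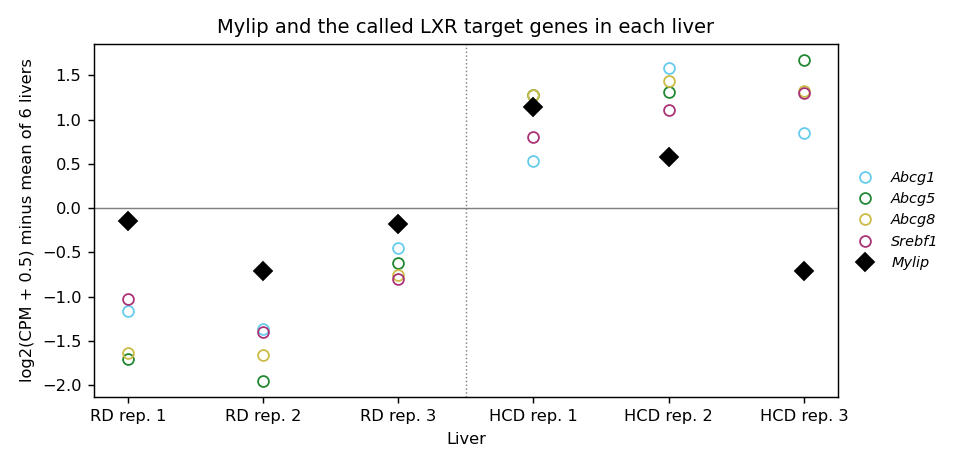
Deviation of log2(CPM + 0.5) from the mean of 6 livers (vertical axis) in each liver (horizontal axis) for Mylip (diamonds) and the 4 called LXR targets (circles). The 4 targets were drawn because they were called higher on HCD, so their place above 0 in each HCD liver follows largely from that choice. The uncalled targets are not drawn. Mylip is at 1.15, 0.58 and -0.71 in HCD replicates 1 to 3.

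The protein-coding genes whose pattern over the 6 livers was most like that of each member were found by the root mean square difference of these log2 deviations, over the 8835 genes that averaged 5 CPM or more. For Mylip they were Prex1 (0.187), Sgms1 (0.208) and Cul9 (0.247), beside a median of 0.720 over all genes. Those nearest to Lrp1 were Dcun1d1 (0.0186), Ncoa4 (0.0326) and Atg2a (0.0344), beside a median of 0.296. Scarb1 was followed most closely by Rps27l (0.0564), Tmem219 (0.0595) and Fkbp2 (0.0675), beside a median of 0.413. For Sort1 the nearest were C2 (0.0884), Enpp2 (0.105) and Ldhd (0.114), beside a median of 0.471. The smaller differences for Lrp1 and Scarb1 came with far more counts per library than the 44 to 281 of Mylip.

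Markers of other liver cells were read beside all of these values. Stellate cell markers summed to 218 to 222 CPM on RD and 219 to 362 CPM on HCD (7 of 7 above 0, none called), and cholangiocyte markers to 37.4 to 91.9 and 64.5 to 98.1 CPM (4 of 5 above 0, none called). Leukocyte markers stayed at 6.01 to 10.4 CPM on RD and 7.46 to 13.1 CPM on HCD, with Cd3e and Cd8a at 0 in some libraries. Red blood cell genes summed to 135 to 229 CPM on RD and 166 to 440 CPM on HCD, with the globin genes Hba-a1 and Hbb-bs called higher (2 of 3 tested genes, beside 1.95% of all genes) at 2.41 and 2.28 on the log2 scale. With 1 liver left out, each globin gene was called in 3 of 6 fits, with an adjusted p of up to 0.112 by edgeR. The third tested gene, Alas2, an enzyme of heme synthesis, stood at -0.70 and was not called. It was at 8.24 CPM in HCD replicate 1 and 97.0 to 154 CPM in the other 5 livers, with a log2 fold change of -1.22 to -0.17 with 1 liver left out. The part of these cells in the values of the 4 genes was not tested.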

How the data were processed

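Counts of reads per gene, as the authors deposited them, are whole numbers without normalization. The FPKM that the authors deposited are scaled by gene length and by a total that is not stated. The log2 fold changes and p-values that the authors deposited hold their own comparison and were not used. The submitters' processing notes name STAR, HTSeq, DESeq2, edgeR and GRCm39, without versions. Symbols came from the FPKM table, and coordinates from GENCODE M21 on GRCm38, whose exon lengths matched those implied by counts and FPKM for all 4 genes within 0.1%.

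Counts were filtered (filterByExpr), scaled by TMM (factors 0.886 to 1.07) and tested by diet with edgeR 4.0.16 (quasi-likelihood, Benjamini-Hochberg over 13105 genes) in R 4.3.3. Scripts were tested on simulated data. Depth was 13771630 to 23129576 counts, and the precision is set by the spread between livers. Alternatives used DESeq2 1.42.0, limma 3.58.1 on log2 FPKM (pseudocounts 1 and 0.1), other scalings and filters, a loess trend over length (span 0.5), protein-coding genes only, a replicate block and leaving out each liver. Permutation tests were exact and two-sided. The 4 genes, the lists and the rules were chosen with earlier results of these data known. Named were the 4 genes, in each list every called gene and both extremes of log2 fold change, and the 3 genes nearest to each member. Libraries of the same diet differed beyond counting noise, and all 6 were kept. The labels do not say that each library is a separate mouse, so p-values measure the spread between these samples. Lrp1b, Sorcs1, Ccdc22 and Tf were not analysed here, and 1 marker gene is not reported here.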

Additional observations from a re-analysis of the deposited data

How the results depend on the processing

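The signs of the log2 fold changes of Mylip, Lrp1, Scarb1 and Sort1 held under each of the 11 alternatives with all 6 livers and the 6 fits with 1 liver left out, although Mylip stood at 0.58 in place of 0.91 with limma on log2(FPKM + 1). For Scarb1, 6 alternatives brought the value past the threshold, with log2 fold changes of 0.62 (DESeq2), 0.67 (upper-quartile factors), 0.65 (mean of at least 50 counts), 0.64 and 0.66 (limma with pseudocounts of 1 and 0.1) and 0.75 (length trend removed), so that 1 of the 4 genes was called higher under each of these, as at an unadjusted p, where 1 was also called lower. Genes of the 7 lists called higher numbered 7 with DESeq2, 5 without the filter on low counts and 2 to 4 with 1 liver left out, and those called lower 3 with DESeq2, 1 without that filter and 0 to 1 with 1 liver left out. Of all genes, 1.76% were called higher and 1.38% lower without the filter, and 0.112% to 1.51% higher and 0.157% to 1.02% lower with 1 liver left out. The log2 ratios of Mylip to Scarb1 and Lrp1 to Sort1 changed sign when 1 liver was left out (-0.32 to 0.61 and -0.27 to 0.23), as did the log2 fold change of Abca1 (-0.24 without HCD replicate 2, up to 0.26). The cause was not tested. Deviations of same-numbered livers from the mean of their diet correlated at -0.076, 0.088 and -0.041. RD replicate 2 correlated best with HCD replicate 2, RD replicate 1 with HCD replicate 3 and RD replicate 3 with HCD replicate 1. With 3 livers per diet such values cannot show whether the replicate numbers pair the livers. With the replicate number as a block the log2 fold changes were 0.76 for Mylip, -0.39 for Lrp1, 0.63 for Scarb1 and -0.43 for Sort1, none called, and 3 genes of the lists were called higher, Abcg1 no longer among them (adjusted p = 0.0632). With 3 livers per diet an exact test cannot go below 0.1, and at 44 to 281 counts Mylip is the least precisely measured of the 4 genes.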
